A study of Mus musculus with 6 samples.

Results

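The array used in this study carried probes that stand for stretches of the genome and name no transcript. They were chosen as the non-control probes whose target name begins with a chromosome, such as chr17:27479404-27481770_F, in the coordinates of mouse build mm9. There were 16194 such probes among 55681 non-control probes (29.1%), for 3543 distinct intervals. The intervals are called intergenic in the working name of the set. No gene annotation of mm9 was used here, so where they lie relative to genes was not analysed, and they are called interval probes below.

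The 6 arrays measured tibial growth plates of untreated male C57BL/6J mice aged 4 weeks, taken by laser microdissection. There were 2 arrays each for wild type (WT) mice and for mice labelled ATF6aKO or ATF6bKO, knockouts named after the proteins of Atf6 and Atf6b. The series title asks for the role of ATF6, a sensor of stress in the endoplasmic reticulum, in the growth of long bones. How the alleles were made, in which cells they are deleted, and whether each array stands for its own animal are not given in the labels. The p-values below are therefore about the spread from array to array, part or all of which may be technical.

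The growth plate is the cartilage at the ends of long bones in which chondrocytes divide, enlarge and lay down the matrix on which bone forms. ATF6a and ATF6b are transcription factors anchored in the membrane of the endoplasmic reticulum and cut free to enter the nucleus when unfolded proteins accumulate. Agilent mouse arrays use probes with names of this form for long intergenic non-coding RNAs, transcripts that code for no protein, many of which are known to be restricted to a tissue and present at low levels.

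RNA was amplified as cDNA by whole-transcriptome amplification and labelled with Cy5. The knockout arrays were on 1 slide and were read with a protocol of 2 channels set for Cy5 only, while the WT arrays were on another slide and were read with 1 channel. Slide, channel and genotype therefore cannot be told apart in any comparison with WT, whereas the knockouts shared both. Values below are background-corrected, quantile-normalised log2 intensities unless stated otherwise, and higher means brighter. The sequence of a probe affects its brightness, so levels of different probes are not compared as amounts of RNA.

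Of 9 chondrocyte markers fixed as a check of the tissue, 9 were measured and 8 lay well above background on all 6 arrays. Their median level was 13.08 for ATF6aKO, 11.61 for ATF6bKO and 8.74 for WT. In the same order, the medians of other cell types' lists were 7.58, 7.85 and 10.43 for erythroid cells, 7.25, 7.43 and 8.66 for endothelium, 9.79, 9.64 and 9.04 for macrophages, 8.01, 8.01 and 7.7 for adipocytes, and 7.96, 7.92 and 8.05 for skeletal muscle. For osteoblasts and osteocytes and for osteoclasts the WT arrays were far apart, with 13.33 and 8.02 for the first list and 11.09 and 7.04 for the second. The knockout arrays lay between 7.16 and 8.42 and between 6.4 and 6.86. In bulk samples, fewer cells of a type and less RNA per cell cannot be told apart. The part of cell composition in the differences of interval probes was not tested. The probe for Atf6, on chromosome 1, read 7.07 and 6.97 on the ATF6aKO arrays, 6.91 and 7.01 on the ATF6bKO arrays, and 7.05 and 7.28 on the WT arrays. The probe for Atf6b, on chromosome 17, read 8.92 and 8.48, 8.77 and 8.41, and 9.06 and 9.19. Neither passed the threshold between the knockouts (limma, adjusted p of 0.999 and 0.997). Where these probes lie relative to the deleted parts is not given, so these values check no label.

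The array labelled ATF6aKO replicate 1 went against its label of male. The 32 tested probes of 18 RefSeq genes placed on chromosome Y had a median of 6.75 on it, against 11.54 on ATF6aKO replicate 2, 11.33 and 11.38 on the ATF6bKO arrays, and 10.02 and 10.17 on the WT arrays. Of these probes, 28 were lowest on that array, and 21 lay more than 1 log2 unit below every other array. Ssty2, a multicopy gene of the Y long arm known for its expression in spermatids, had a median over 3 probes of 6.71 there and of 13.63, 13.27, 13.17, 12.72 and 12.73 on the others. Xist, the non-coding RNA that coats the inactive X chromosome in female cells, read 10.83 there and 9.13, 8.88, 8.91, 8.11 and 8.29 on the others. Counts and chromosome shares of ATF6aKO are therefore also given without it, where the remaining array is assumed to vary like the other genotypes. None of the differences of intervals named by rule in the comparisons changed sign in the fit without it.

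The intervals lay on 20 chromosomes, with 153 intervals and 577 probes on X and 0 on Y. Their lengths ran from 62 bases to 7128487 bases, with a median of 7304 bases, and 984 were shorter than 1 kb. An interval had between 1 and 20 probes, with a median of 3, and 428 intervals had a single probe. Of the intervals, 2101 (59.3%) overlapped another, so neighbouring intervals share sequence and are not independent measurements. Each name ends in F or R, with 8171 probes marked F, 8010 marked R and 13 without a mark. What the marks mean is not spelled out in the files. Probes of both marks were present for 1067 intervals.

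Of the 16194 interval probes, 79 were left out because a spot was marked as an outlier, which left 16115 probes in 3541 intervals. Testing required a probe to be detected (well above background) on both arrays in 1 genotype or more, which 15494 interval probes passed and 621 did not. The tested probes covered 3503 intervals.

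Interval probes gave signal above background more often than probes for messenger RNAs. The share of interval spots well above background was 93.4% and 93.5% on the ATF6aKO arrays, 92.7% and 90.2% on the ATF6bKO arrays, and 97.6% and 92.5% on the WT arrays. The share for RefSeq coding probes was 90.3% and 90.8%, 88.7% and 84.4%, and 96.3% and 88.7%, and for 308 negative control spots it lay between 0.325% and 1.62%. Interval spots were ahead of RefSeq coding spots on each of the 6 arrays, by 3.45 ± 1.5 percentage points (SD, n = 6 arrays; exact sign-flip permutation test, two-sided p = 0.03125, the smallest that 6 arrays can give). These probes were the same on every array, so the test covers the spread between arrays and not a choice of probes.

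There were 13797 interval probes (85.6%) well above background on all 6 arrays, compared with 79.1% of RefSeq coding probes. At the other end, 238 interval probes (1.48%) were detected on no array, compared with 2.40% of RefSeq coding probes. In 2197 intervals every probe was detected on all 6 arrays, in 3404 (96.1%) at least 1 probe was, and in 15 no array detected any probe. Amplified transcripts and amplified genomic DNA cannot be told apart by these probes, and the share of signal that came from DNA was not tested.

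The typical interval probe was slightly brighter than the typical RefSeq probe, while the brightest probes were mostly not interval probes. Before normalisation, the median spot intensity of interval probes was 202.5 and 177.5 on the ATF6aKO arrays, 181 and 165 on the ATF6bKO arrays, and 295.2 and 250 on the WT arrays. The corresponding medians were 163 and 150, 143.5 and 127, and 227 and 177.5 for RefSeq coding probes, where the background was 37 for knockout and 17 for WT arrays. On the normalised scale, the interval median exceeded the median of all RefSeq probes, coding and non-coding together, by 0.255 and 0.211 on the ATF6aKO arrays, 0.298 and 0.335 on the ATF6bKO arrays, and 0.262 and 0.346 on the WT arrays. The mean excess was 0.284 ± 0.051 (SD, n = 6 arrays; exact sign-flip permutation test, p = 0.03125), and it was 0.29 ± 0.053 over RefSeq coding probes alone. The excess averaged 0.233 in ATF6aKO and 0.316 in ATF6bKO without overlap, but 2 arrays against 2 cannot go below p = 0.333 in an exact permutation test, which is the p obtained. Over the mean of 6 arrays, 59.1% of interval probes lay above the RefSeq coding median. By contrast, 966 (5.99%) lay above the 95th percentile of RefSeq coding probes and only 45 (0.279%) above their 99th percentile, which 2.09% of RefSeq non-coding probes passed.

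A few intervals held a very bright probe among dim ones. The interval chr5:52461266-52541416, 1 of those with the brightest probes, had 12 probes whose mean levels ran from 6.3 to 16.61 with a median of 8.13. At chr6:92040526-92041319 an F-marked probe had a mean of 16.62, and the other probes had 7.21 and 8.26. At chr5:105072936-105074001 the brightest probe had 16.36, and the others had 6.07 and 6.27. A probe in chr13:21856097-21859200 had a mean of 16.8. In the first 3 of these intervals a high level described some probes and not the whole stretch.

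Intervals with many probes showed the same mixture of levels. The most was 20 probes, which 32 intervals had, and the first 3 of these in the order of their names are given. In chr10:126818382-126856582 they ran from 6.4 to 14.29 with a median of 9.22, in chr10:60473030-60535340 from 6.31 to 10.28 with a median of 7.58, and in chr10:94900849-94928059 from 6.84 to 10.74 with a median of 8.1. Probes of the same interval and mark had an intraclass correlation of 0.347 for level, over 15419 probes of 3910 interval and mark names, and a median range of 1.7 log2 units. The corresponding correlation for RefSeq coding probes of 1 target was 0.232, over 10593 probes of 4921 targets, with a median range of 1.01. For the difference ATF6aKO minus ATF6bKO the order was reversed, with 0.294 for interval probes and 0.482 for RefSeq coding probes. These correlations describe shared target, position and array, with no test.

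Probes marked F and R of the same interval had similar levels. Over 1065 intervals with values for both marks, the mean levels correlated at r = 0.682, a description over intervals that share arrays and often sequence. The median of F minus R was 0.003, the median absolute difference was 0.46, and 208 intervals (19.5%) differed by over 1 log2 unit. Where 1 probe of each mark was taken, r was 0.371 and the median absolute difference 0.89. For a pair of probes of the same mark these were 0.386 and 0.85. That pair was taken over 3910 interval and mark names, which include intervals with 1 mark only. The values lay close, but they come from different sets of intervals and were not compared within the same intervals. Differences between genotypes were also correlated between the marks, with r = 0.525 for ATF6aKO minus ATF6bKO over the 1065 intervals.

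The largest gaps between the marks rested on single probes. At chr4:131905739-131910814 the mean was 7.79 for F and 14.18 for R, where R was 1 probe. At chr3:107608348-107636457 the means were 9.46 for F and 14.7 for R, and at chr2:150008075-150101675 they were 10.23 for F and 6.59 for R. Both marks had 1 probe in the former, and F had 1 in the latter. Different probes differ in level also within a mark, so these gaps show nothing about strand. A difference of more than 2 log2 units was present in 42 intervals.

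Levels depended little on the length of the interval (r = 0.08 with log length). Neighbouring intervals that overlapped had levels correlated at r = 0.375 (944 pairs), falling to 0.103 for the 1577 pairs more than 100 kb apart. For the difference ATF6aKO minus ATF6bKO the values were 0.289 for overlapping pairs, 0.32 under 10 kb, 0.366 between 10 and 100 kb, and 0.174 beyond. Pairs that overlap share sequence, and all pairs share arrays.

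The comparison of the knockouts was the only one in which genotypes shared a slide and a channel. No interval probe passed an adjusted p of 0.05 between ATF6aKO and ATF6bKO (limma, Benjamini-Hochberg over 52531 probes; smallest adjusted p 0.779), and 0% of all probes tested did. At an unadjusted p under 0.05 there were 486 of 15494 interval probes (3.14%), with 206 higher and 280 lower in ATF6aKO, below the 5.04% of all probes tested and the 6.68% of RefSeq coding probes. Without the array labelled ATF6aKO replicate 1 there were 990 (6.39%, against 7.56% of all probes), and without ATF6bKO replicate 2 there were 182 (1.17%, against 1.7%). In the authors' table, which follows the unlabelled green channel of the knockout arrays, the share was 5.57%, against 5.53% of all probes. Without ATF6aKO replicate 2, 28 interval probes (0.181%, against 0.272% of all probes) passed the adjusted threshold, all on chromosome X, and they are described below.

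Over all 6 arrays, interval probes differed from RefSeq coding probes mostly in the upward direction. At unadjusted p under 0.05, 1.33% of interval probes were higher in ATF6aKO, against 3.66% of all probes and 5.61% of RefSeq coding probes. In the downward direction the shares were 1.81%, against 1.38% and 1.08%. Without the array labelled ATF6aKO replicate 1, 302 interval probes (1.95%) were higher and 688 (4.44%) lower. The shares of all probes in each direction are not given for that fit, so a lean particular to interval probes cannot be read from these counts. Over all 6 arrays, more than 2-fold differences at any p were present in 56 interval probes (0.361%), against 1.19% of all probes and 1.59% of RefSeq coding probes. Of these, 32 were higher (0.207%, against 0.927% of all probes) and 24 lower (0.155%, against 0.263%). Without the array labelled ATF6aKO replicate 1, 60 were higher (0.387%, against 1.7%) and 27 lower (0.174%, against 0.0857%). Of the 24 lower probes, 20 lay in a stretch of chromosome X that is described below, and none of the 27 did. When the probes were split into 3 groups by level, the share of interval probes at unadjusted p under 0.05 was 2.34%, 3.16% and 3.78% from the dimmest to the brightest, and that of RefSeq coding probes 5.39%, 7.0% and 8.03%, so the share of interval probes was the smaller in each group.

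The direction of small differences leaned downward. Of the tested interval probes, 9452 (61.0%) had a negative difference, against 54.9% of all probes, with a median of -0.05. The share was 60.8% without the array labelled ATF6aKO replicate 1, 54.6% without ATF6aKO replicate 2 and 36.8% in the authors' table. That table follows the unlabelled green channel of the knockout arrays. Arrays of both genotypes did not overlap in 1807 interval probes higher in ATF6aKO (11.7%, against 16.7% of all probes) and in 3356 lower (21.7%, against 18.9%). With ATF6aKO replicate 2 alone for its genotype, these counts were 4224 (27.3%, against 33.4%) and 7341 (47.4%, against 41.3%). Among 2508 intervals with at least 3 tested probes, every probe was higher in 217 (8.65%) and lower in 477 (19%). Without the array labelled ATF6aKO replicate 1, every probe was higher in 252 of the 2508 and lower in 554 (22.1%). Among 568 RefSeq coding targets with at least 3 tested probes, the counts with both ATF6aKO arrays were 133 (23.4%) and 86 (15.1%). Without the array labelled ATF6aKO replicate 1, the counts of these targets were 145 (25.5%) and 94 (16.5%).

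The lower interval probes were most frequent on chromosome 17, which carries Atf6b. On it, 47 of 878 tested interval probes (5.35%) were lower in ATF6aKO than in ATF6bKO at unadjusted p under 0.05, against 1.59% of interval probes elsewhere, and 12 (1.37%) were higher. The next chromosome was 16, with 3.44%. The chromosome was singled out after its values were seen, no probe of it passed the adjusted threshold, and the comparison of chromosomes was not tested. RefSeq coding probes placed on chromosome 17 were lower in 31 of 1148 (2.70%), against 1.06% of all RefSeq coding probes with a chromosome. The lower interval probes lay mainly in the first 30 Mb, with 39 lower and 9 higher of 471 probes, while the rest of the chromosome had 8 lower and 3 higher of 407. They came from 21 intervals there, with a median difference of -0.63.

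The count on chromosome 17 depended on the arrays used. It was 79 (9.0%, against 4.17% elsewhere) without the array labelled ATF6aKO replicate 1 and 31 (3.53%, against 1.93%) without ATF6aKO replicate 2. It was 34 (3.87%, against 1.63%) without ATF6bKO replicate 1 and 14 (1.59%, against 0.602%) without ATF6bKO replicate 2. The share was therefore above that elsewhere with each of the 4 knockout arrays left out in turn. In the authors' table the count was 26 (2.96%, against 2.58%), but that table follows the unlabelled green channel of the knockout arrays.

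The clearest example on chromosome 17 was chr17:27479404-27481770 (F), whose probe of smallest p read 8.8 and 8.74 on the ATF6aKO arrays, 9.89 and 9.73 on the ATF6bKO arrays, and 8.99 and 9.07 on the WT arrays. By that probe, the ATF6bKO arrays were above all 4 others. The log2 difference between the knockouts was -1.04 (SE 0.16, adjusted p = 0.813), and the 3 tested probes of the interval had differences from -1.04 to -0.66. Against WT, ATF6bKO was higher by 2 of these probes and lower by 1, at -1.18. At chr17:15100982-15115630 (R) the levels were 7.36 and 7.5 on the ATF6aKO arrays, 8.32 and 8.45 on the ATF6bKO arrays, and 6.72 and 6.6 on the WT arrays, a difference of -0.95. Here ATF6aKO lay between the other genotypes. All 3 tested probes of that interval were lower, from -0.95 to -0.84, and so were all 7 of the overlapping interval chr17:15111725-15139800, from -1.03 to -0.18. The R-marked probe with the largest difference in that interval read 8.44 and 8.33 on the ATF6aKO arrays, 9.36 and 9.47 on the ATF6bKO arrays, and 8.22 and 7.62 on the WT arrays.

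Chromosome 1, which carries Atf6, did not stand out as a whole. Of 1147 interval probes, 18 (1.57%, against 1.31% elsewhere) were higher and 17 (1.48%, against 1.83%) lower at unadjusted p under 0.05. Without the array labelled ATF6aKO replicate 1, 31 were higher (2.7%, against 1.89%) and 58 lower (5.06%, against 4.39%). Without ATF6aKO replicate 2, 6 were higher (0.523%, against 1.86%), and without ATF6bKO replicate 2, 7 were higher and 12 lower. Over all 6 arrays, 5 of 43 probes between 170 and 180 Mb were higher and 2 lower. Between 180 and 190 Mb, 6 of 84 were higher and 2 lower. No other window of 10 Mb on the chromosome held more than 3 higher probes. These windows were singled out after the values were seen, and they were not tested. Both chromosome 1 intervals among those of smallest p lay between 170 and 190 Mb, and they went in opposite directions. At chr1:183783306-183834531 (F) the levels were 9.36 and 9.71 on the ATF6aKO arrays, 8.83 and 8.58 on the ATF6bKO arrays, and 8.65 and 8.62 on the WT arrays, a difference of 0.83, with 11 of the interval's 14 tested probes above 0. At chr1:171402829-171403289 (R) they were 9.34 and 9.04, 10.14 and 9.99, and 9.14 and 9.32, a difference of -0.88.

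On chromosome X the interval probes were higher in ATF6aKO, and this share fell to near that elsewhere without the array labelled ATF6aKO replicate 1. Of 522 tested X probes, 41 (7.85%) were higher at unadjusted p under 0.05, against 1.1% elsewhere, and 1 (0.192%) was lower. Without that array there were 11 higher (2.11%, against 1.94% elsewhere) and 10 lower, and without ATF6bKO replicate 2 there were 11 higher (2.11%, against 0.461%). Without ATF6aKO replicate 2, so that this array stood alone for its genotype, there were 95 higher (18.2%, against 1.19%) and 48 lower (9.2%, against 1.77%).

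The single arrays showed the same. The median of X interval probes minus that of autosomal interval probes was 0.03 on the array labelled ATF6aKO replicate 1, and -0.21, -0.29, -0.30, -0.24 and -0.30 on ATF6aKO replicate 2, the ATF6bKO arrays and the WT arrays. For each tested X probe, the level on 1 knockout array was set against the median of the other 3. The median of that difference was 0.22 on the array labelled ATF6aKO replicate 1, with 75.1% of probes above 0, and -0.03, -0.09 and -0.02 on the others. At chrX:150159252-150181275 (R), the levels were 8.42 and 8.61 on the ATF6aKO arrays, 7.78 and 7.77 on the ATF6bKO arrays, and 7.94 and 7.68 on the WT arrays. Both ATF6aKO arrays were above all others here, and all 6 tested probes of the interval had a difference above 0.

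In 1 stretch of X the same array was far below the others. The stretch chrX:120134722-122652122 (2.52 Mb) held 22 intervals with 53 probes, all tested. Its ends match those of the outermost intervals that were lower in the fit without ATF6aKO replicate 2, described below. Low levels on this array are therefore partly built into the choice of the stretch. Its probes had a median of 8.91 on the array labelled ATF6aKO replicate 1, against 11.25, 10.94, 11.09, 10.17 and 10.18 on the others, and 40 of the 53 were lowest on it. There were 25 interval probes on that array more than 1 log2 unit below every other array, and all 25 lay in this stretch. WT replicate 2 had 255 such probes, in 242 intervals of which 10 were on X, and ATF6aKO replicate 2 had 9, while the other arrays had 0 or 1.

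Without ATF6aKO replicate 2, 28 probes of 19 intervals in the stretch passed the adjusted threshold between the knockouts, all lower, with differences from -4.03 to -1.64. Their medians were 8.79 on the array labelled ATF6aKO replicate 1, 12.29 on ATF6aKO replicate 2, 12.13 and 12.17 in ATF6bKO, and 10.9 and 11.13 in WT. At chrX:122648893-122652122 (F) the levels were 8.22 on the array labelled ATF6aKO replicate 1 and 12.31 on ATF6aKO replicate 2. They were 12.3 and 12.26 in ATF6bKO, and 10.69 and 10.98 in WT. The difference in that fit was -4.03 (adjusted p = 0.000556). At chrX:120324027-120326909 (R) the levels were 8.62 and 12.95, 12.49 and 12.64, and 11.71 and 11.75, with a difference of -3.92 (adjusted p = 0.000411). In both intervals ATF6aKO replicate 2 lay with the ATF6bKO arrays. These probes were thus low on the same array as the probes of Y-linked genes, and whether they bind Y-linked sequence was not tested.

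The interval probe of smallest p between the knockouts on any chromosome was at chr5:74487385-74497428 (R), away from chromosomes 1, 17 and X. It read 8.74 and 9.08 on the ATF6aKO arrays, 7.55 and 7.35 on the ATF6bKO arrays, and 6.89 and 6.97 on the WT arrays. The ATF6aKO arrays were above all 4 others, and the difference was 1.46 (2.75-fold; SE 0.18; unadjusted p = 5.18e-05 and adjusted p = 0.779). The interval had 18 tested probes, of which 9 were above 0 and 9 below, from -0.24 to 1.46, and 4 were at unadjusted p under 0.05. The rise was therefore seen in some of its probes only.

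Other intervals had most of their probes on 1 side. At chr15:32167516-32174427 (R) the levels were 7.7 and 7.93 on the ATF6aKO arrays, 7.01 and 6.86 on the ATF6bKO arrays, and 6.69 and 6.62 on the WT arrays, a difference of 0.88, and all 8 tested probes were above 0. At chr6:35201798-35217831 (R) they were 8.93 and 9.49, 8.1 and 8.22, and 8.01 and 7.77, a difference of 1.05, and 8 of 9 probes were above 0. By the probe named, the ATF6aKO arrays were the highest in both intervals. Over all tested probes, ATF6aKO was above WT by 6 of 8 in the first interval and by 5 of 9 in the second. At chr12:81719382-81731865 (F) the levels were 10.56 and 11.1, 9.99 and 9.63, and 9.44 and 9.33 (difference 1.02; 4 of 5 above 0). At chr14:26842169-26845456 (F), which has a single probe, they were 9.17 and 9.28, 8.58 and 8.08, and 9.12 and 9.16, so that ATF6bKO was the genotype that stood apart.

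The named lower intervals outside chromosomes 1 and 17 had smaller differences. At chr13:56286339-56298089 (R) the levels were 9.18 and 9.1 on the ATF6aKO arrays, 9.96 and 10.07 on the ATF6bKO arrays, and 9.37 and 9.53 on the WT arrays, a difference of -0.87, with 8 of 10 probes below 0. At chr16:9129538-9137898 (R) they were 7.34 and 7.39, 7.98 and 8.18, and 8.27 and 8.38, a difference of -0.71, with 9 of 10 probes below 0. By the probe named, ATF6bKO was above both other genotypes in the first, and ATF6aKO was below both others in the second. The other probes mostly did not repeat this order in the first interval, where ATF6bKO was below WT by 9 of 10 probes. In the second, ATF6aKO was below WT by 6 of 10 probes and above it by 4. The 12 intervals named by smallest p had adjusted p from 0.779 to 0.813, so none passed.

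Detection in only 1 of the knockouts was rare. There were 143 interval probes (0.923%, against 1.21% of all probes) well above background on both ATF6aKO arrays and on neither ATF6bKO array, and 15 (0.0968%, against 0.107%) the other way round. With ATF6aKO replicate 2 alone these counts were 208 (1.34%, against 1.76%) and 81 (0.523%, against 0.531%). For these a bound on the fold was taken on each array against the dim probe's value or the lowest detected signal, whichever was higher. It leaves out the spread between arrays and so is no lower limit of the true fold. At chrX:20555593-20591971 (F) the array labelled ATF6aKO replicate 1 read 7.32 and ATF6aKO replicate 2 read 6.57. The ATF6bKO arrays read 6.26 and 6.08. The bound was 1.63-fold higher in ATF6aKO, but ATF6aKO replicate 2 lay nearer to the ATF6bKO arrays than to the other ATF6aKO array. The next bounds were 1.56-fold at chr13:28898970-28901714 (R) and 1.46-fold at chr1:98768971-98780921 (R). In the other direction, with ATF6bKO higher, they were 1.45-fold at chr17:6324860-6326762 (F), 1.36-fold at chr3:35782698-35789748 (F) and 1.32-fold at chr11:97505439-97522274 (R). Except at the X probe, the bound was the same as the measured fold. None of the 6 passed the adjusted threshold.

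Against WT, interval probes changed about as often as other probes, with slide and channel inseparable from genotype. Both comparisons use the same WT arrays. In ATF6aKO, 6667 interval probes (43.0%, against 43.7% of all probes) passed the adjusted threshold in limma, 2718 higher (17.5%, against 20.4%) and 3949 lower (25.5%, against 23.2%). In ATF6bKO, 6013 (38.8%, against 38.9%) passed, 2685 higher (17.3%, against 18.4%) and 3328 lower (21.5%, against 20.5%). The balance of directions depended on the scaling. With 75th percentile scaling the splits were 3557 higher and 3313 lower for ATF6aKO (44.3%, against 46% of all probes), and 3805 and 2692 for ATF6bKO (41.9%, against 42.7%), and the median over all probes moved from -0.04 to 0.12 and from -0.03 to 0.18. Without the array labelled ATF6aKO replicate 1 the count for ATF6aKO was 5851 (37.8%, against 38.5% of all probes), and without replicate 2 it was 4269 (27.6%, against 27.8%). The count for ATF6bKO was 2867 (18.5%, against 18.5%) without its replicate 1 and 3376 (21.8%, against 21.9%) without its replicate 2. Called differences of more than 2-fold were present in 2687 interval probes (17.3%, against 18.4%) and 2424 (15.6%, against 16%).

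Probes of 1 interval often moved in opposite directions against WT. Among 1837 interval and mark names with at least 2 called probes in ATF6aKO, 573 (31.2%) held calls in both directions, and in ATF6bKO 534 of 1669 (32.0%) did. RefSeq coding targets did so in 30% and 30.2%. The interval chrX:50400250-50410825 (F) had probes among both the largest rises and the largest falls. One read 11.64 and 11.69 on the ATF6aKO arrays, 11.37 and 9.61 on the ATF6bKO arrays, and 8.09 and 8.32 on the WT arrays. Another read 9.45 and 9.25, 9.32 and 9.27, and 13.51 and 13.62, a difference of -4.22 (18.6-fold, adjusted p = 0.000315) in ATF6aKO and -4.27 (19.3-fold, adjusted p = 0.000365) in ATF6bKO. WT was therefore below the knockouts by the first probe and above them by the second. Most of the interval's 13 tested probes went with the first. In ATF6aKO, 12 were above 0, with 7 called higher and 1 lower. In ATF6bKO, 10 were above 0, with 4 called higher and 1 lower.

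Some intervals had probes that moved together. At chr4:40202350-40205120 (R) the levels were 11.05 and 10.91 on the ATF6aKO arrays, 11.07 and 11.11 on the ATF6bKO arrays, and 8.88 and 5.93 on the WT arrays, differences of 3.57 and 3.69, although the WT arrays were far apart. All 3 probes of that interval were called higher in both knockouts. At chr5:121759042-121789992 (R) they were 7.58 and 7.36, 7.58 and 7.49, and 10.64 and 11.37, differences of -3.53 and -3.47. All 11 probes were below 0 in both, and 9 in ATF6aKO and 10 in ATF6bKO were called. At chr4:141100989-141106639 (R) the levels were 9.01 and 8.84, 8.98 and 9.37, and 12.9 and 13.22, with 4 of 5 probes called lower in both. In other intervals the probe named stood more alone. At chr8:73663222-73695355 (F) the levels were 12.08 and 12.13, 12.04 and 11.95, and 9.27 and 7.84, and 1 of 3 probes was called, as at chr19:5798135-5800557 (R), with differences of 3.24 and 3.11. The probe at chr8:19792940-19798868 (F) did not stand alone. Its levels were 11.62 and 11.88, 11.8 and 11.71, and 8.47 and 8.62. All 3 probes of that interval were above 0 in both knockouts, and 2 were called. The largest falls also included chr17:29374758-29387733 (F), with differences of -3.55 and -3.39, and chr12:73838608-73862621 (F), with -3.43 and -3.14.

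The X stretch also appeared among the rises against WT. At chrX:120976609-120977281 (F) the levels were 11.68 on the array labelled ATF6aKO replicate 1 and 14.09 on ATF6aKO replicate 2, 13.95 and 13.94 in ATF6bKO, and 10.35 and 10.71 in WT. The differences were 2.36 for ATF6aKO and 3.42 for ATF6bKO. ATF6aKO replicate 2 again lay with the ATF6bKO arrays.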

How the data were processed

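Total RNA of 6 samples, extracted with a kit for DNA and RNA, was labelled as cDNA from 150 ng, per the labels' protocols. The deposited scanner files hold intensity values. The submitters' processing notes name Agilent Feature Extraction, version 10.7.1.1, for them. Median spot and background signals were used, from the red channel for knockouts and the only channel for WT. Intervals are in mm9, per the file headers. The authors' deposited log2 table follows the green channel, which is unlabelled on the knockout arrays, and served as an alternative only. How its values were centred stays unknown.

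Background was corrected with normexp (offset 50; limma 3.58.1, R 4.3.3). Control and outlier spots were left out, values were taken to log2, and arrays were quantile normalised. All 52531 probes that passed the detection filter were fitted over 6 arrays with lmFit and eBayes, and Benjamini-Hochberg adjustment ran over all of them at 0.05. The steps were tested on simulated data. Tables used Python 3.11.15 with pandas 2.3.3 and numpy 2.4.6.

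RefSeq accessions received symbols and chromosomes from a table of assembly GRCm38.p6, used for no coordinates; 26472 of 27064 RefSeq probes matched. The naming rule took the brightest 10 intervals, the 6 largest changes each way past the threshold without overlap (or of smallest p where none passed), up to 3 bounds each way, the 3 intervals with most probes and the 3 with the largest gap between marks. Several of these are counted only, and 1 is not reported here. The members, lists and rules were chosen with earlier results of these data known. The looks at chromosomes 1, 17, X and Y, their examples and alternatives were added after seeing the data. Replicate numbers did not pair the arrays. Alternatives covered scaling, background, filter, variance model, samples fitted, replicate block, means over an interval's probes, and leaving out each array.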

Additional observations from a re-analysis of the deposited data

Results flagged for a closer look

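The green channel of the knockout arrays, which the labels give no dye for, held signal at interval probes. Of the interval spots, 2.99% and 2.43% were well above background in green on the ATF6aKO arrays, and 3.12% and 2.07% on the ATF6bKO arrays. Negative controls gave 0.325% to 0.974%. The share was 15.0%, 12.1%, 17% and 10.4% for RefSeq coding spots.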

How the results depend on the processing

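The 486 interval probes at unadjusted p under 0.05 between the knockouts became 863 in the authors' table, 65 of 4557 when the probes of an interval and mark were averaged, and 182 to 990 with 1 array left out. Calls between the knockouts were 0 to 28 with 1 array left out. Against WT, calls were 4269 to 6448 for ATF6aKO and 2867 to 6120 for ATF6bKO with 1 array left out, and 1641 and 1397 of 4557 after averaging. Mean detection of interval spots over the arrays was 93.3%, and it was 98.4% by Agilent's significance flag and 98.5% above the 95th percentile of negative controls. The excess over all RefSeq probes was 0.272 to 0.299 with 1 array left out, where p cannot go below 0.0625. The correlation of the marks was 0.667 with processed signals and 0.618 over probes detected on all 6 arrays. With the replicate block, counts were 421, 0, 6301 and 5586. The numbers share no more than a name, with correlations of -0.09, -0.03 and 0.18 between deviations, and the block moved none of these 4 counts by over 1.5 times; on chromosome X, lower probes went from 1 to 4. On chromosome X, the count of higher probes was 19 in the authors' table. In that table, 10 intervals named between the knockouts turned sign, with values of 0.05 (3 intervals), -1.20, -0.45, 0.85, -0.60, 0.20 (a pair) and -0.25. Against WT, 2 turned for ATF6aKO (-0.05, -0.85) and 2 for ATF6bKO (-0.80, -1.15). The cause was not tested, but the table follows the unlabelled channel of the knockout arrays. Neighbouring gene probes were not compared, because positions of RefSeq probes were not used here. With 2 arrays a genotype, their number limits the precision, and levels near the floor of detection have no order.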
